A study of Mus musculus with 15 samples.

Results

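Rlf, Miip, Ttc27 and B3galtl are 4 protein-coding genes whose read counts were low in both libraries of a single transgenic cell line and near the control in the matching line that made the same transcription factor together with Nkx6.1. They were chosen by these measured levels: Rlf was selected on its count in the Nkx2.2 line, and Miip, Ttc27 and B3galtl on theirs in the Olig2 line, each set against the matching 2-factor line. They are 4 of the 23393 genes with a symbol in the deposited count table, and all 4 were among the 13982 genes tested. The low values that chose them are therefore given below as a description, without a test. For the 4 genes themselves, tests were kept to the 3 other lines of each.

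Messenger RNA was sequenced from neural progenitors derived from 129/Ola mouse embryonic stem cells, in 15 libraries. The study was designed to find genes that Nkx2.2, Nkx6.1 and Olig2 repress, which are transcription factors of ventral neural tube progenitors. Every group, the control included, spent 2 days in suspension, then received 500 nM all-trans retinoic acid and 1 ug/ml doxycycline for 12 hours. Doxycycline switches on a transgene under the TRE promoter: Olig2, Nkx6.1, Nkx2.2, Nkx6.1-P2A-Olig2 or Nkx6.1-P2A-Nkx2.2, with 2 libraries per line, and TRE_Cre in the mA2.lox.Cre control line, with 5 libraries. P2A is a short peptide that lets 1 transcript yield separate proteins. The labels do not say how many clones stand behind a line or whether replicates were separate cultures, so p-values cover only the variation from library to library, possibly technical, and a feature of a line cannot be told apart from an effect of its transgene.

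Each line had its transgene. Nkx2-2 reached 448 to 505 CPM (counts scaled by TMM to a common library total) in the Nkx2.2 line. With Nkx6.1-P2A-Nkx2.2 it reached 358 to 382 CPM, against at most 1.39 CPM elsewhere. Nkx6-1 reached 616 to 674 CPM in the Nkx6.1 line, 666 to 677 CPM with Nkx6.1-P2A-Nkx2.2 and 657 to 681 CPM with Nkx6.1-P2A-Olig2. Elsewhere Nkx6-1 was at most 65.1 CPM. Olig2 reached 422 to 522 CPM in the Olig2 line and 586 to 637 CPM with Nkx6.1-P2A-Olig2, against at most 45.1 CPM elsewhere. Library totals ran from 12282038 to 19426544 counts, and every control total was above every total of the lines. The 10 neural progenitor markers were detected in every group, with a summed level of 546 to 1110 CPM per library. Summed marker levels of other cell types were 82.3 to 250 CPM for pluripotency, 218 to 759 CPM for endoderm, 50.9 to 136 CPM for neurons, 29.0 to 114 CPM for fibroblasts and 22.0 to 49.9 CPM for mesoderm. Of the 6 mesoderm markers, 1 was at 0 in every line but the Nkx6.1 line. Both libraries were below all 5 controls in the mesoderm sum with Olig2 (22.0 and 27.5 CPM), and in the neural progenitor and neuron sums with Nkx6.1. They were also below them in the pluripotency sum with Nkx6.1-P2A-Nkx2.2 and with Nkx6.1-P2A-Olig2. Single markers tested numbered 10 for neural progenitors, 3 for mesoderm and 6 for each other type. Over the 5 lines edgeR called 12 of their comparisons lower and 0 higher. Of all tested genes it called 0.443% to 1.82% lower and 0.172% to 1.42% higher per line. Pax6 was called in all 5 lines and the endoderm marker Sox17 in the 3 lines with Nkx6.1. The rest were Sox2 and Cdh2 in the Nkx6.1 line, Meox1 in the Olig2 line and Twist1 with Nkx6.1-P2A-Nkx2.2. In the Olig2 line, the 5 tested Y chromosome genes were all lower and 156 of 368 tested chromosome 18 genes were higher, whereas chromosomes 4, 5 and 17, which carry the 4 genes, had medians of -0.004, 0.003 and 0.0 on the log2 scale. The part of these differences in the results below was not tested.

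Rlf encodes a large zinc-finger protein that was found in mice as a modifier of epigenetic gene silencing, and its human counterpart is known from fusions with MYCL in small cell lung cancer. Miip, the migration and invasion inhibitory protein, binds the insulin-like growth factor binding protein IGFBP2 in human cells and restrains their movement. Ttc27 is a tetratricopeptide repeat protein; such repeats bind other proteins. B3galtl, now named B3glct, is the enzyme of the endoplasmic reticulum that adds glucose to the O-linked fucose of thrombospondin type 1 repeats, and its loss in humans causes Peters plus syndrome.

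The genes lie at separate places in the genome (GENCODE M21, the assembly of mm10). Rlf spans chr4:121145373-121215084 and Miip chr4:147860778-147868816, both on the minus strand. Ttc27 spans chr17:74717732-74863570 and B3galtl chr5:149678230-149762599, both on the plus strand. Rlf, Miip and B3galtl overlap no other annotated gene. Ttc27 overlaps 2 antisense transcripts, neither of which has a row in the count table. The upstream sequences below are shown because the study asked which genes these DNA-binding factors repress and, for Miip, because the stretch is the gap to a neighbour that is described later. They are the part of RefSeq's promoter window (build GRCm38.p6) that lies outside every annotated gene, read 5' to 3' on the gene's own strand, and capitals mark an E box, CANNTG, the letters bound by basic helix-loop-helix factors such as Olig2.
Rlf, chr4:121215122-121215334, minus strand:
Rlf: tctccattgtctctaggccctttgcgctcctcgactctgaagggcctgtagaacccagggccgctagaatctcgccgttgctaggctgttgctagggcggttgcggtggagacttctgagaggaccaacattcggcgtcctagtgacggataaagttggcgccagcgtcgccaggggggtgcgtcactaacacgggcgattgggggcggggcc
Miip, chr4:147868817-147868969, minus strand:
Miip: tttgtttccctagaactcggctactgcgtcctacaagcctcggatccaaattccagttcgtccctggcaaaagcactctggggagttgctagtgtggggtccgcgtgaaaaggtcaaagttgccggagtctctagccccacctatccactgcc
Ttc27, chr17:74717500-74717731, plus strand:
Ttc27: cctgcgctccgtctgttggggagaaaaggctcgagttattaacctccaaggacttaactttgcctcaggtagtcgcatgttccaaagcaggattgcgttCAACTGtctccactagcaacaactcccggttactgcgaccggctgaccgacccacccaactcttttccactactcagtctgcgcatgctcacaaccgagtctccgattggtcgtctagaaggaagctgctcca
B3galtl, chr5:149677980-149678099, plus strand:
B3galtl: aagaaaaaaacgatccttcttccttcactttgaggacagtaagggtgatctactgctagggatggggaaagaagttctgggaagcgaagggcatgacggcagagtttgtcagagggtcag
Of these 4 stretches, the one before Ttc27 holds 1 E box, CAACTG, and the others hold 0.

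In the whole 300-base windows, which also take in the first bases of each gene, both strands were searched. CANNTG occurred once in the Rlf window, once in that of Ttc27, 2 times in that of B3galtl and 0 times in the first of the 2 windows listed for Miip. Since the stretches printed for Rlf and B3galtl hold 0, their matches lie in, or reach into, the part of the window inside annotated genes. It was present in 72.3% of all 32851 promoter windows. CAGCTG, one form of CANNTG, occurred once in the B3galtl window and in 16.3% of windows. CATATG, another form of it, was found in 0 of these 4 windows and in 3.91% of windows. TNAAGTG, the core bound by Nkx2 class homeodomain proteins, was found in 0 of the 4 and in 11.5% of windows. These are matches of letters only.

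Rlf was low in the Nkx2.2 line and in no other group. Its level was 9.05 and 11.5 CPM in the 2 Nkx2.2 libraries, from 164 and 184 counts. In control replicates 1 to 5 it was 61.7, 61.6, 64.0, 62.4 and 47.5 CPM. The Nkx2.2 line thus had 17.2% of the control mean of 59.4 ± 6.76 CPM (SD, n = 5), a log2 fold change of -2.54 ± 0.14 (SE), given as a description since it chose the gene. The line with Nkx6.1-P2A-Nkx2.2, which made the same factor, had 68.9 and 67.6 CPM, above all 5 controls (log2 fold change 0.20 ± 0.11, likewise a description). The lowest of the 13 other libraries, control replicate 5, was 4.15-fold above the higher Nkx2.2 library. In a bulk sample, fewer cells that express a gene and less of its RNA per cell cannot be told apart.

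In the lines that did not choose it, Rlf passed the test in none. It was 76.2 and 75.4 CPM in the Nkx6.1 line, the highest of any group and above all controls, but the log2 fold change of 0.35 ± 0.11 did not pass edgeR's quasi-likelihood test (adjusted p = 0.154). The Olig2 line had 63.2 and 75.3 CPM, a range that overlaps the controls (0.22 ± 0.11, edgeR adjusted p = 0.447). The Nkx6.1-P2A-Olig2 line had 69.1 and 64.8 CPM (0.17 ± 0.11, edgeR adjusted p = 0.485). Ordered by mean, the groups ran from the Nkx2.2 line through the control, Nkx6.1-P2A-Olig2, Nkx6.1-P2A-Nkx2.2 and Olig2 lines to the Nkx6.1 line. From the Nkx6.1-P2A-Olig2 line to the Olig2 line, neighbours in that order overlapped.

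Miip, the weakest of the 4 genes in reads, was low in the Olig2 line. The 2 Olig2 libraries had 2.23 and 2.40 CPM, from 32 and 40 counts. The controls had 7.41, 5.38, 8.94, 7.15 and 7.28 CPM. The Olig2 line stood at 32.0% of the control mean of 7.23 ± 1.26 CPM (SD, n = 5), a log2 fold change of -1.64 ± 0.20 that chose the gene and carries no test. With Nkx6.1 and Olig2 together, Miip was 5.68 and 6.43 CPM, within the control range (-0.26 ± 0.18, a description). The lowest of the 13 other libraries was 2.24-fold above the higher Olig2 library.

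The other 3 lines overlapped the controls in Miip. The levels were 6.95 and 7.53 CPM in the Nkx2.2 line, 8.23 and 7.30 CPM in the Nkx6.1 line, and 6.57 and 5.74 CPM in Nkx6.1-P2A-Nkx2.2 cells. None passed the edgeR test: the log2 fold changes were 0.00 ± 0.17 (adjusted p = 0.999), 0.10 ± 0.17 (adjusted p = 0.803) and -0.23 ± 0.18 (adjusted p = 0.632). Apart from the Olig2 line, the group means lay between 6.05 and 7.77 CPM, and the ranges of all neighbours in that order overlapped.

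Ttc27 varied least of the 4 genes over the 13 libraries outside the line where each was low. The 2 Olig2 libraries had 33.5 and 29.9 CPM. The controls had 60.5, 72.8, 65.5, 67.5 and 65.1 CPM. The Olig2 line stood at 47.8% of the control mean of 66.3 ± 4.44 CPM (SD, n = 5), with a log2 fold change of -1.07 ± 0.09, which chose the gene. The Nkx6.1-P2A-Olig2 line had 75.3 and 67.4 CPM, of which the first was above all controls (0.11 ± 0.08, a description). Over the 13 libraries outside the Olig2 line, the highest was 1.26 times the lowest, against 1.66 for Miip and 1.52 for B3galtl; for Rlf the same ratio over the 13 libraries outside the Nkx2.2 line was 1.60.

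In the 3 other lines Ttc27 stayed within or near the control range. It was 65.5 and 59.6 CPM in the Nkx2.2 line, 65.4 and 62.1 CPM in the Nkx6.1 line and 71.4 and 68.9 CPM in Nkx6.1-P2A-Nkx2.2 cells. The log2 fold changes of -0.08 ± 0.08, -0.06 ± 0.08 and 0.08 ± 0.08 did not pass the edgeR test (adjusted p = 0.878, 0.772 and 0.738). Above the Olig2 line, the group means ran in order from 62.5 CPM with Nkx2.2 to 71.3 CPM with Nkx6.1-P2A-Olig2, and each group overlapped the next.

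B3galtl was low in the Olig2 line and was the only one of the 4 genes to pass a test in another line. The 2 Olig2 libraries had 9.34 and 12.2 CPM, from 134 and 203 counts. The controls had 26.1, 24.3, 24.6, 28.4 and 27.2 CPM. The Olig2 line stood at 41.2% of the control mean of 26.1 ± 1.75 CPM (SD, n = 5), with a log2 fold change of -1.27 ± 0.12, which chose the gene. The Nkx6.1-P2A-Olig2 line had 27.9 and 30.1 CPM (0.15 ± 0.10, a description).

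In Nkx6.1-P2A-Nkx2.2 cells B3galtl rose to 33.8 and 36.9 CPM, above all 13 other libraries. Below it in order of mean came the Nkx2.2, Nkx6.1-P2A-Olig2 and Nkx6.1 lines and the control, each overlapping the next, and then the Olig2 line. The log2 fold change was 0.44 ± 0.10 (edgeR adjusted p = 0.0367). The call was lost with 6 of the 7 libraries left out in turn, all but control replicate 5, and adjusted p then ran from 0.0343 to 0.428. It was also lost with a term for the label series (adjusted p = 0.233), the leading digits of the numbers in the library labels, which are 21 for the single-factor lines and 23 for the 2-factor lines. The controls of series 23, replicates 4 and 5, had 28.4 and 27.2 CPM, and those of series 21 had 24.3 to 26.1 CPM. The Nkx2.2 line, at 29.0 and 30.9 CPM (0.20 ± 0.10), and the Nkx6.1 line, at 27.7 and 28.3 CPM (0.10 ± 0.10), did not pass (edgeR adjusted p = 0.659 and 0.664).

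Across the 12 comparisons that did not choose a gene, 1 was called higher and 0 lower by edgeR. At an unadjusted edgeR p under 0.05 Rlf in the Nkx6.1 line is added as higher (0.0082) and still 0 as lower. DESeq2 and limma called 0 lower. The genes were chosen as low in a single line, so the lack of lower calls elsewhere follows in part from the choice. For background, edgeR called 2.85% of all tested genes in the line with Nkx6.1-P2A-Nkx2.2 (1.09% higher, 1.76% lower), and 2.84% in the Nkx6.1-P2A-Olig2 line (1.02% higher, 1.82% lower). In the single-factor lines it called 1.86% with Olig2 (1.42% higher, 0.443% lower), 0.737% with Nkx6.1 (0.172% higher, 0.565% lower) and 0.722% with Nkx2.2. All 5 comparisons share the same 5 controls.

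**Figure D1:**
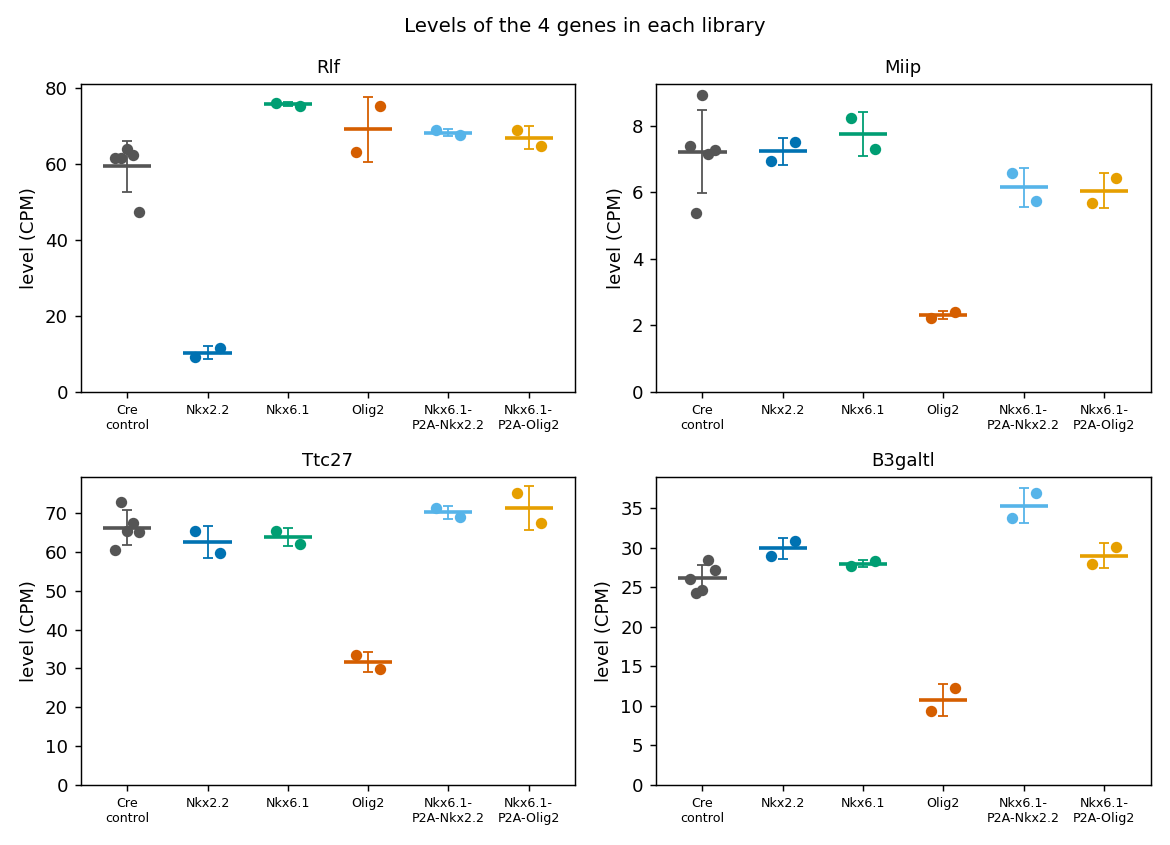
Level of each gene (CPM, linear axis from 0) in each of the 15 libraries; points are libraries, the horizontal bar is the group mean and the error bar is the SD. Rlf sits at 9.05 and 11.5 CPM in the Nkx2.2 line, and Miip, Ttc27 and B3galtl are lowest in the 2 Olig2 libraries.

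**Figure D2:**
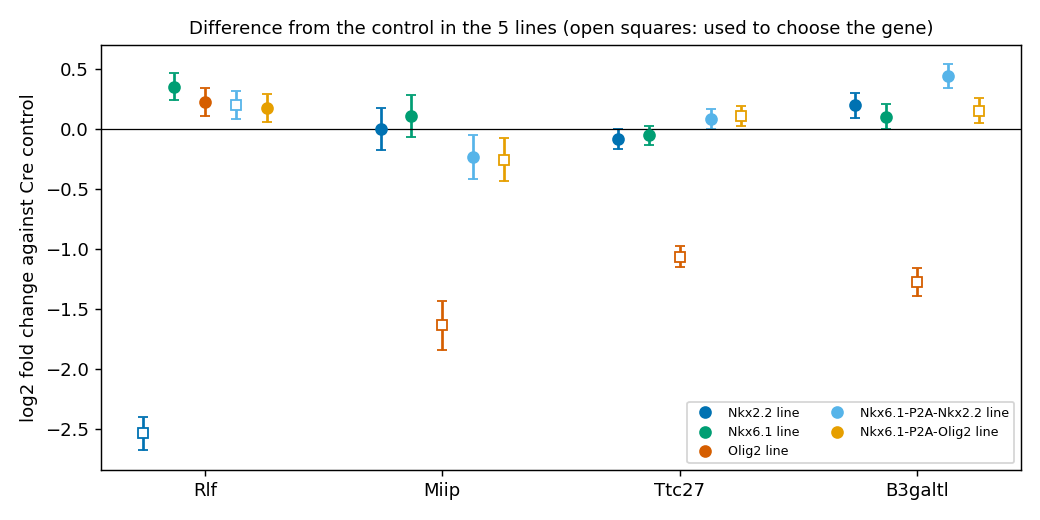
Log2 fold change against the Cre control for each gene in the 5 lines, with SE from the edgeR fit; open squares are the comparisons that chose the gene and filled circles those tested. Outside the line where each gene is low, values lie between -0.26 and 0.44.

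Per kilobase of exon, the 4 genes differed in abundance. In the control, Ttc27 had 20.8 ± 1.39 CPM per kb, Rlf 6.26 ± 0.712, B3galtl 5.45 ± 0.365 and Miip 2.16 ± 0.376 (SD, n = 5). The low level was 9.92 CPM per kb for Ttc27 in the Olig2 line, which is still above the control level of each of the other 3 genes. It was 2.24 for B3galtl and 0.691 for Miip in the Olig2 line, and 1.08 for Rlf in the Nkx2.2 line. None of the 4 was at 0 in any library.

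Ratios between libraries with the same number in their labels are a description, as they use the values that chose the genes. Nkx2.2 replicate 1 had 0.147 times the Rlf level of control replicate 2, and Olig2 replicate 1 had 0.250, 0.511 and 0.380 times the Miip, Ttc27 and B3galtl levels of control replicate 3. The authors' deposited table of ratios, which lists 224 genes as the count over the mean control count, holds all 4. That table comes from the same counts and its sheet is named for differential genes, so it adds no separate support. In the authors' deposited table Rlf is 0.148 and 0.166 in the Nkx2.2 line, and Miip is 0.237 and 0.296, Ttc27 0.388 and 0.403, and B3galtl 0.275 and 0.417 in the Olig2 line. Those ratios are not corrected for library totals, which were lower in the lines than in the controls.

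To place the 4 genes among all others, each tested gene was ranked by the gap between the higher library of a line and the lowest of the 13 other libraries. In the Nkx2.2 line Rlf had the widest downward gap and was the only gene set apart 2-fold or more (0.00715% of those tested). The next were Matn2, a matrilin of the extracellular matrix, with 1.69-fold, and Tmtc4 with 1.56-fold. In the Olig2 line 6 genes were set apart 2-fold (0.0429%), the 5 Y chromosome genes Ddx3y, Eif2s3y, Uty, Uba1y and Usp9y, followed by Miip. B3galtl with 1.99-fold and Ttc27 with 1.78-fold came next and lay just outside, and the genes after them, Svop and Myc, had gaps of 1.41-fold and 1.35-fold. In the other lines 2-fold gaps were found for 0.00715% of genes with Nkx6.1, 0.0215% with Nkx6.1-P2A-Nkx2.2 and 0.00715% with Nkx6.1-P2A-Olig2, and for none of the 4 genes. These ranks describe the choice and support nothing beyond it.

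**Figure D3:**
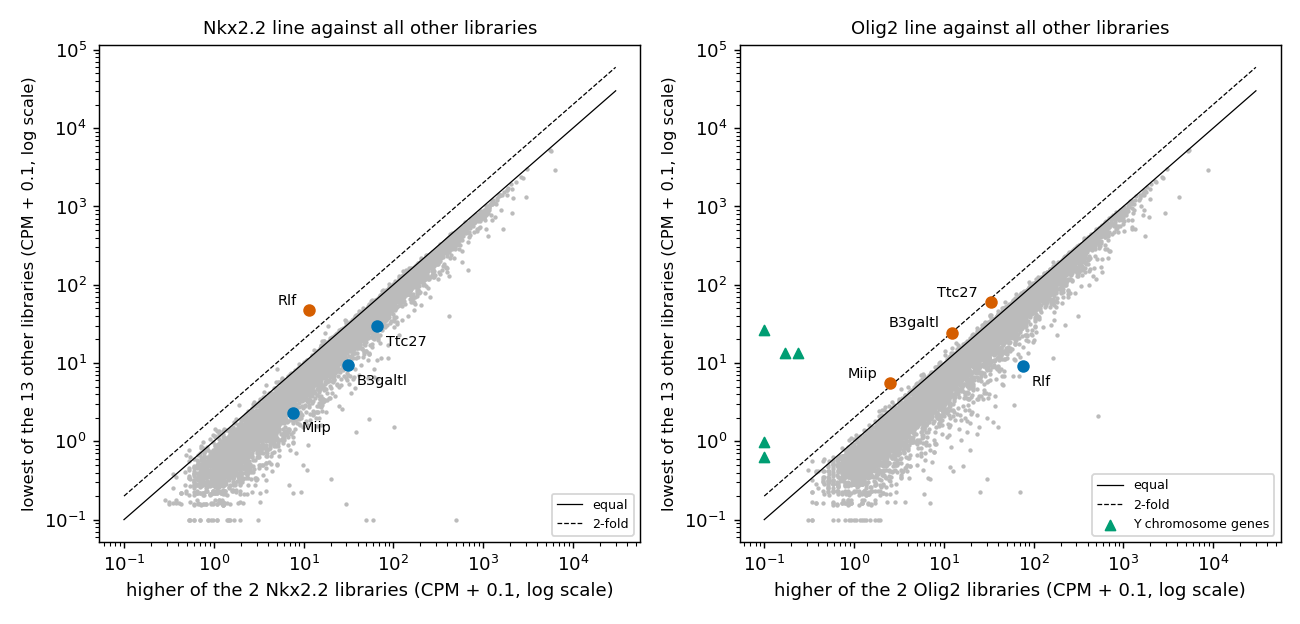
Each point is 1 of the 13982 tested genes: the x axis is the higher library of the Nkx2.2 line (left) or the Olig2 line (right), and the y axis the lowest of the 13 other libraries, both as CPM + 0.1 on log scales. Rlf lies 4.15-fold above equality on the left; on the right Miip, B3galtl and Ttc27 lie along the 2-fold line and the 5 Y chromosome genes far above it.

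The genes around the 4 were measured next, since the choice did not use them. The 10 nearest tested genes of each, 5 on each side, were read from the same fit, 40 in all. The farthest lay 218 kb from Miip, 911 kb from B3galtl, 1800 kb from Rlf and 3510 kb from Ttc27. On one side of Rlf the nearest tested gene was 1620 kb away, so not all of these genes are close by. In the Nkx2.2 line, 0 of the 10 neighbours of Rlf were lower and 1 was higher, against 0.451% and 0.272% of all tested genes. In the Olig2 line, 0 of 10 neighbours were called in either direction around each of Miip, Ttc27 and B3galtl, where 1.86% of all tested genes were called by edgeR. That share includes the 156 higher genes of chromosome 18. On chromosome 4 edgeR called 3 lower and 2 higher of 921 tested genes in this line. It called 5 and 2 of 891 on chromosome 5, and 7 and 2 of 679 on chromosome 17. At an unadjusted p under 0.05 there were 1, 0 and 2 around these 3 genes, DESeq2 called 0, 0 and 1, and limma called 0. The median log2 fold changes of the neighbours were -0.06 around Rlf, -0.10 around Miip, -0.03 around Ttc27 and -0.12 around B3galtl, and that of all genes was -0.005 in the Nkx2.2 line and -0.006 in the Olig2 line. Mycl1, the mouse gene of the fusion partner named above, had -0.36 ± 0.16 in the Nkx2.2 line and did not pass (edgeR adjusted p = 0.528).

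Tmco2, the neighbour that rose, begins 36146 bases beyond the 3' end of Rlf on the same strand (chr4:121105651-121109226). It was 20.3 and 22.3 CPM in the Nkx2.2 libraries. The 13 other libraries ranged from 7.32 to 11.7 CPM, with a control mean of 10.9 ± 1.14 (SD, n = 5), so the groups did not overlap. Its log2 fold change was 0.97 ± 0.16 (edgeR adjusted p = 0.0119). Without Nkx2.2 replicate 1 the adjusted p was 0.0516, without replicate 2 it was 0.208, and with a term for the label series it was 0.0535. In Nkx6.1-P2A-Nkx2.2 cells, where Rlf was near the control, Tmco2 had a log2 fold change of -0.07 ± 0.17 (edgeR adjusted p = 0.924).

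Fv1 lies 162 bases from Miip, on the opposite strand (chr4:147868979-147870358), beyond the Miip stretch printed above. It is a mouse gene of retroviral origin that restricts murine leukaemia viruses, and it was singled out after its values were seen. It had 2 and 4 counts in the Olig2 libraries and 7 to 32 counts in the 13 others. As levels these are 0.139 and 0.240 CPM against 0.469 to 1.80 CPM, with a control mean of 1.22 ± 0.346 (SD, n = 5), so the groups did not overlap. The log2 fold change of -2.61 ± 0.65 did not pass (edgeR adjusted p = 0.0654). This call depends on the fit. It passed without control replicate 5 (adjusted p = 0.0461) and with only the compared groups in the fit (adjusted p = 0.0479), and over all libraries left out in turn the adjusted p ran from 0.0461 to 0.428. By limma on log2(CPM + 1) the log2 fold change was -0.89 (adjusted p = 0.0962). In the Nkx6.1-P2A-Olig2 line Fv1 had -0.11 ± 0.46 (edgeR adjusted p = 0.932). Mfn2, the next gene beyond Fv1 and a mitochondrial fusion gene, had 0.06 ± 0.11 in the Olig2 line (edgeR adjusted p = 0.871).

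**Figure D4:**
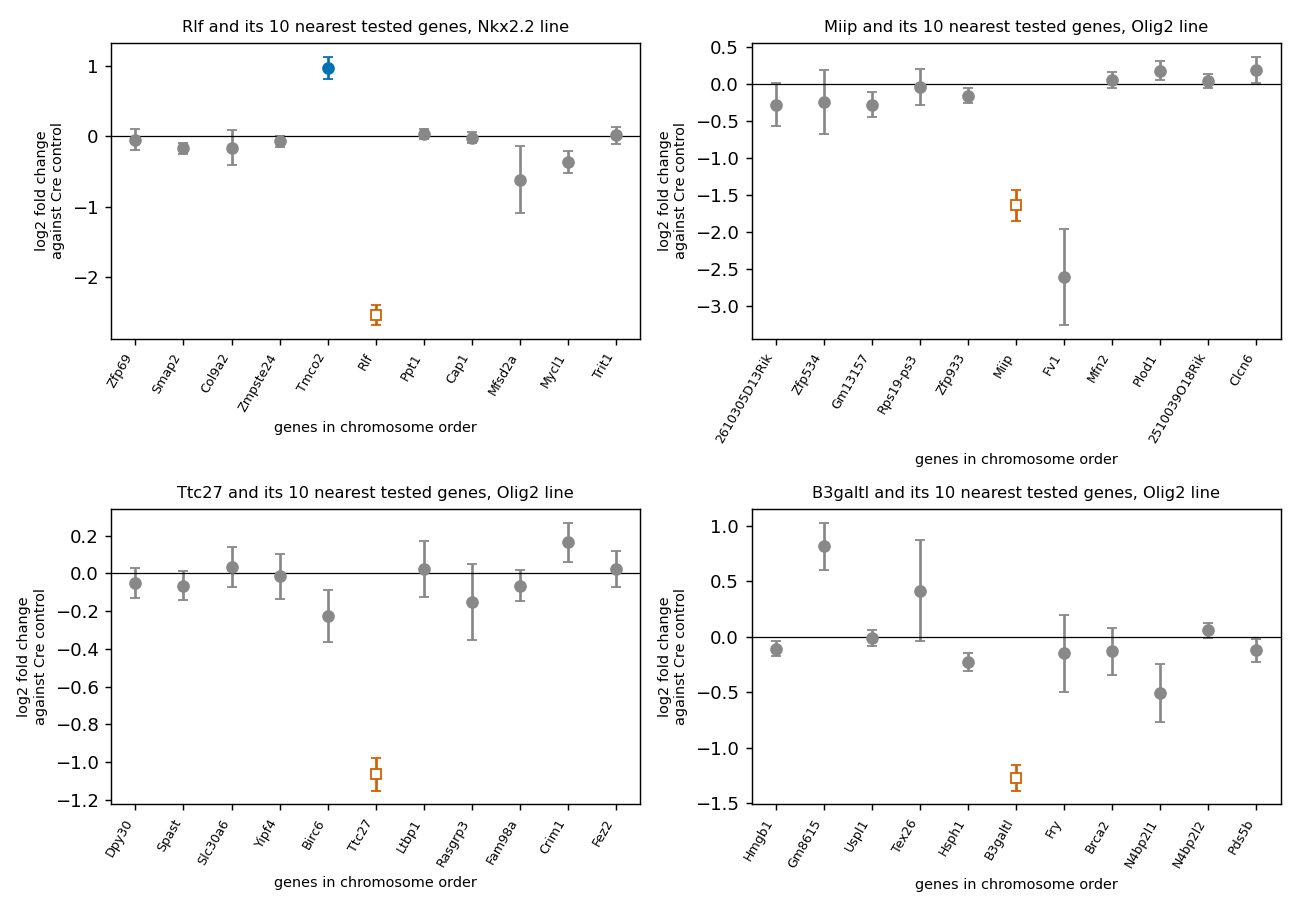
Log2 fold change against the control, with SE, of each gene (open square) and its 5 nearest tested genes on each side in chromosome order, in the line where the gene is low. Tmco2 (0.97, blue) passed the test; Fv1 (-2.61) did not.

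**Figure D5:**
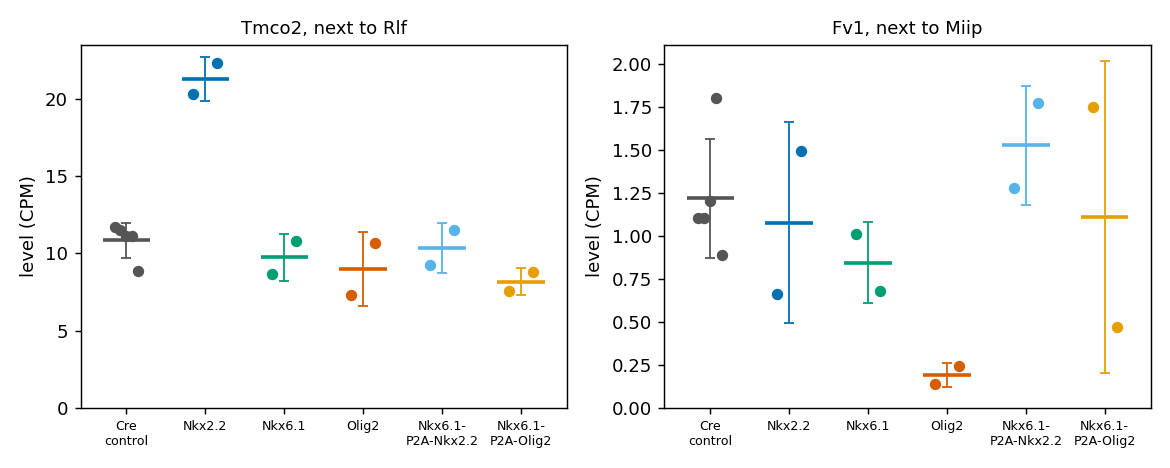
Level (CPM, linear axis from 0) of Tmco2 and Fv1 in each library, with group mean and SD. The 2 Nkx2.2 libraries are above all others in Tmco2, and the 2 Olig2 libraries are below all others in Fv1.

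Outside the lines where the 4 genes are low, 1 of the 40 neighbours was called in the Nkx6.1-P2A-Olig2 line and 0 in the Nkx6.1 and Nkx6.1-P2A-Nkx2.2 lines by edgeR. Of all tested genes, 2.84%, 0.737% and 2.85% were called in these lines, so 1 of 40 is near the share of all genes. At an unadjusted p under 0.05 the counts of neighbours were 4, 5 and 3, DESeq2 called 1 in each, and limma called 1, 0 and 0. The 1 called by edgeR was Rasgrp3, a Ras activator 572 kb from Ttc27 that was named after its values were seen, which fell by 0.89 on the log2 scale (SE 0.21, edgeR adjusted p = 0.0397). It was not called without control replicate 2, control replicate 4 or either library of that line.

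The genes whose levels followed each of the 4 most closely over the 15 libraries were found by Pearson's r of log2(CPM + 1), given as a description. For Rlf these were Pcca (0.957), Matn2 (0.947), Ret (0.932), Tmtc4 (0.897) and Ggact (0.879). Pcca encodes a subunit of propionyl-CoA carboxylase and Ret the receptor of glial cell line-derived neurotrophic factors. Over the 13 libraries outside the Nkx2.2 line the same r was 0.623, 0.238, 0.754, -0.115 and 0.326, lower for all 5.

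For Miip, Ttc27 and B3galtl, Ddx3y of the Y chromosome had the highest r, 0.907, 0.929 and 0.962, and with the Olig2 libraries left out r was 0.036, -0.171 and 0.630. Eif2s3y and Uty were also among the 5 closest genes of all 3. The others for Miip were Erdr1, with 0.902 over 15 libraries and 0.786 without the Olig2 libraries, and Gne, an enzyme of sialic acid synthesis, with 0.879 and 0.479. For Ttc27 it was C330006A16Rik, with 0.907 and 0.310, and for B3galtl AI429214, with 0.888 and 0.450. Ttc27 and B3galtl were among each other's 5 closest, with 0.910 over 15 libraries and 0.084 over the 13 outside the Olig2 line. Miip had 0.840 with Ttc27 and 0.851 with B3galtl over 15 libraries, and -0.697 and -0.303 over the 13. Rlf had -0.216 with Miip, -0.090 with Ttc27 and -0.198 with B3galtl. The points share library, depth and scaling.

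Genes with roles close to those of the 4 were then counted. Over all tested genes edgeR called 0.722% in the Nkx2.2 line, 0.737% in the Nkx6.1 line and 1.86% in the Olig2 line. The shares were 2.85% with Nkx6.1-P2A-Nkx2.2 and 2.84% with Nkx6.1-P2A-Olig2. At these shares, counts of 0 in lists this short say little. Of 19 tested modifiers of gene silencing, among them Smchd1, Dnmt1 and Trim28, 0 were called by edgeR in any line, and their median log2 fold change in the Nkx2.2 line was -0.08. Over the 5 lines, 10 of their 95 comparisons had an unadjusted p under 0.05, DESeq2 called 1 and limma 0. The next list had 4 tested genes: Mycn, Myc, their partner Max and the Rlf relative Zfp292. In the Nkx2.2 line edgeR, DESeq2 and limma called 0 of them, and 1 had an unadjusted p under 0.05. Mycl1, counted above among the neighbours of Rlf and not here, had an unadjusted edgeR p of 0.0377 in that line. Mycn fell in the Nkx6.1 line, from 105 to 71.5 CPM (-0.55 ± 0.11, edgeR adjusted p = 0.0460), and in Nkx6.1-P2A-Nkx2.2 cells, to 74.8 CPM (-0.48 ± 0.11, edgeR adjusted p = 0.0379). With a term for the label series neither passed (adjusted p = 0.105 and 0.127), and with only the compared groups in the fit the value in the Nkx6.1 line did not pass (adjusted p = 0.0694). Myc fell in the Olig2 line from 33.6 to 12.4 CPM (-1.44 ± 0.32, edgeR adjusted p = 0.0357).

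On the side of Miip, 13 genes of the insulin-like growth factor axis and 12 of the Rac and Pak migration machinery were tested. In the Olig2 line 0 of either list were called by edgeR, DESeq2 or limma, 4 and 1 had an unadjusted p under 0.05, and the medians were 0.20 and 0.02 on the log2 scale. Igfbp2, whose human protein Miip's counterpart binds, rose in Nkx6.1-P2A-Nkx2.2 cells, from 160 to 314 CPM (0.98 ± 0.15, edgeR adjusted p = 0.00330). Igfbp4 rose there from 103 to 168 CPM (0.71 ± 0.09, edgeR adjusted p = 0.000757) and Igfbp5 from 289 to 782 CPM (1.44 ± 0.35, edgeR adjusted p = 0.0472). The kinase Pak3 fell in the same line from 15.1 to 6.91 CPM (-1.14 ± 0.26, edgeR adjusted p = 0.0337). Fits with a library left out aside, there were 11 alternatives. Over these the call held in 7 for Igfbp5, 10 for Pak3 and all 11 for Igfbp2 and Igfbp4. Of 27 tested genes named for tetratricopeptide repeats other than Ttc27, 0 were called by edgeR in any line, with a median of -0.009 in the Olig2 line. Over the 5 lines, 10 of their 135 comparisons had an unadjusted p under 0.05, DESeq2 called 1 and limma 0.

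For B3galtl, 16 genes of a list for O-linked fucose and glucose chains and 41 proteins with thrombospondin type 1 repeats were tested. The first list also names the transporter Slc35c1, and B3gnt2, B3galt6 and B3galnt2, which are not enzymes of these chains. In the Olig2 line edgeR called 1 gene of the first list higher, Mfng, and 0 substrates, with medians of 0.01 and 0.07. Of the first list, DESeq2 called 1 there and limma 0. Of the substrates, 5 had an unadjusted p under 0.05 there, DESeq2 called 1 and limma 0. Mfng, a Fringe that extends O-fucose on Notch, rose from 5.34 to 16.9 CPM (1.67 ± 0.37, edgeR adjusted p = 0.0347) and in the Nkx6.1-P2A-Olig2 line to 19.2 CPM (1.84 ± 0.36, edgeR adjusted p = 0.0155). Lfng, another Fringe, rose in the Nkx6.1-P2A-Olig2 line from 4.10 to 19.3 CPM (2.23 ± 0.48, edgeR adjusted p = 0.0267). Pofut2, which adds the fucose that B3galtl extends, was called in no line.

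Among the thrombospondin repeat proteins, Ctgf, a matrix-associated growth regulator, fell from 23.6 CPM to 14.9 in the Nkx2.2 line (-0.67 ± 0.11), 15.8 in the Nkx6.1 line (-0.58 ± 0.11) and 15.8 in Nkx6.1-P2A-Nkx2.2 cells (-0.58 ± 0.11). The edgeR adjusted p was 0.0159, 0.0350 and 0.0143. In Nkx6.1-P2A-Nkx2.2 cells Rspo3, a secreted enhancer of Wnt signalling, fell from 2.32 to 0.516 CPM (-2.13 ± 0.41, edgeR adjusted p = 0.0142). That mean is below the 1 CPM used to select genes for testing. In the Nkx6.1-P2A-Olig2 line Cyr61, the netrin receptor Unc5a and the adhesion receptor Bai1 rose by 0.75, 1.84 and 0.84 on the log2 scale, and the netrin receptor Unc5c fell by 2.54 (edgeR adjusted p = 0.0133, 0.0309, 0.0469 and 0.0428). Of the 18 calls over all lists and lines, 1, that of Igfbp4, held with each library left out in turn. Without Olig2 replicate 2, Mfng in the Olig2 line had an adjusted p of 0.753. Without Nkx6.1-P2A-Nkx2.2 replicate 1, Igfbp2 had an adjusted p of 0.0789.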

How the data were processed

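Messenger RNA was measured in 15 libraries of neural progenitors, 2 from each of 5 lines and 5 controls. The deposited table has 23420 rows and holds counts, per its whole-number values, though its sheet is named for RPKM. Per the submitters' processing notes, STAR, DESeq2 and mm10 were used, with no roles or versions; the counting tool, annotation and strand setting are not given in the sources used here, and antisense reads may therefore be shared. A second deposited table gives each line's ratio to the mean control count for 224 genes; all 2240 cells equalled that ratio within 1e-08. In 27 rows a date stood in place of the symbol; they held 0.228% to 0.253% of each library, stayed in the totals and were not tested.

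Counts were fitted with edgeR 4.0.16 in R 4.3.3 (quasi-likelihood test, TMM scaling) in 1 model of 6 groups, for genes that reached 1 CPM in 2 or more libraries. P-values were adjusted by Benjamini-Hochberg over all 13982 genes, at a threshold of 0.05, and "rose", "fell" and "called" refer to it. The fit was tested on simulated counts. Alternatives were DESeq2 1.42.0, limma 3.58.1 on log2(CPM + 1) and log2(CPM + 0.5), other scaling and filters, terms for label series and number, the compared groups alone, omission of chromosomes 18 and Y, and omission of each library. No 2 libraries were duplicates: each of 105 pairs differed in at least 16921 genes.

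Positions came from GENCODE M21; 21712 symbols matched directly, 1274 through a synonym and 434 not at all. Upstream sequences came from RefSeq, GRCm38.p6, in which all 4 genes matched. The gap rank used log2(CPM + 0.5). Named genes were the 4, neighbours called where a gene is low, the 5 most alike in each case, called list genes, and the 8 genes furthest set apart in the Nkx2.2 and Olig2 lines; Fv1, Mycl1, Mfn2, Rasgrp3, Pofut2, Svop and the chromosome 14 genes not among these were named after their values were seen. The 4 genes and the lists were chosen with earlier results of these data known.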

Additional observations from a re-analysis of the deposited data

Results flagged for a closer look

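Control replicate 5 stood apart from the other controls in Rlf. It had 47.5 CPM, and the other 4 had 61.6 to 64.0 CPM. The distance to the nearest of the others was 0.855 of the whole control range, above Dixon's 95% critical value of 0.71 for 5 samples. Of the 4 genes, 1 was flagged in this way, and chance flags about 1 in 20 groups. The same library had the highest Olig2 level of the controls, 45.1 CPM. Without it the Rlf log2 fold change in the Nkx2.2 line was -2.61.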

How the results depend on the processing

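Over 360 recomputed log2 fold changes of the 4 genes, 336 kept their direction, their side of the threshold and, where untested, their size within 1 SD. In the comparisons that chose the genes, Rlf in the Nkx2.2 line ran from -2.71 to -2.35 and B3galtl in the Olig2 line from -1.47 to -1.10 with libraries left out. Miip in the Olig2 line was -1.44 by limma on log2(CPM + 0.5) and -1.30 on log2(CPM + 1), since a pseudocount draws low levels together. Values near 0 changed sign: Miip in the Nkx2.2 line was -0.001 with the label series as a term, -0.005 with no filter, and -0.077 to 0.094 with libraries left out. The rise of B3galtl in Nkx6.1-P2A-Nkx2.2 cells did not pass with the label series as a term (0.346), no filter (0.431) or only the compared groups (0.436), and ran from 0.375 to 0.497 with libraries left out; the cause was not tested.

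The numbers in the labels were not shown to pair the libraries: of 10 pairs with the same label number, 6 had deviations correlated above 0.1 (-0.561 to 0.790), and of 30 pairs with the same replicate number, 15 did (-0.378 to 0.790). In a line with 2 libraries the deviations from the line mean mirror each other. A pair of such lines therefore gives the same r under either replicate number. These counts thus hold repeated values and cannot settle whether the numbers pair the libraries. With the label number as a block, Rlf was -2.75 in the Nkx2.2 line and -0.026 in the Olig2 line, Ttc27 was 0.112 in the Nkx6.1 line, and B3galtl was 0.345 in Nkx6.1-P2A-Nkx2.2 cells, where it was 0.486 with the replicate block. Neither block left that rise of B3galtl past the threshold (edgeR adjusted p = 0.0713 and 0.0710). With the label number block Tmco2 did not pass in the Nkx2.2 line (0.708, adjusted p = 0.104), nor Mycn in the Nkx6.1 line (-0.243, adjusted p = 0.431), while Fv1 passed in the Olig2 line (-3.19, adjusted p = 0.0243). With the replicate block Mycn did not pass in either line where it was called (-0.501 and -0.442, adjusted p = 0.183 and 0.126). The label number block called 10 neighbours in the Olig2 line and 1 in Nkx6.1-P2A-Nkx2.2 cells, and 15 list genes with Nkx6.1-P2A-Olig2, 14 with Nkx6.1-P2A-Nkx2.2, 16 with Olig2 and 0 with Nkx6.1. The replicate block called 0 list genes in the Nkx6.1 line, 4 in the Olig2 line and 0 neighbours in the Nkx6.1-P2A-Olig2 line.

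Counts of called neighbours were 1 in the Nkx2.2 line, 1 in the Nkx6.1-P2A-Olig2 line and 0 in the other 3 lines. DESeq2 called 1 in each of those 3. The label series term left 0 in the Nkx2.2 line, and the fit of only the compared groups called 1 in the Olig2 line and 0 in the Nkx6.1-P2A-Olig2 line. With libraries left out they ran from 0 to 1 in 4 lines and from 0 to 2 in the Olig2 line. Counts of called list genes were 1 with Nkx2.2, 2 with Nkx6.1, 2 with Olig2, 7 with Nkx6.1-P2A-Nkx2.2 and 6 with Nkx6.1-P2A-Olig2. DESeq2 called 4, 4 and 10 in the Nkx2.2, Nkx6.1 and Nkx6.1-P2A-Olig2 lines, and both limma fits called 1 in the Olig2 line. The label series term left 3 with Nkx6.1-P2A-Olig2, 4 with Nkx6.1-P2A-Nkx2.2, and 0 with Nkx2.2 and with Nkx6.1. The fit of only the compared groups left 0, 1 and 0 in the Nkx2.2, Nkx6.1 and Olig2 lines, and omission of chromosomes 18 and Y left 0 in the Olig2 line. With libraries left out they ran from 0 to 1 with Nkx2.2, 0 to 3 with Nkx6.1 and with Olig2, 1 to 10 with Nkx6.1-P2A-Nkx2.2 and 1 to 8 with Nkx6.1-P2A-Olig2. The causes were not tested.

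Genes set apart downward numbered 1 with Nkx2.2, 1 with Nkx6.1, 6 with Olig2, 3 with Nkx6.1-P2A-Nkx2.2 and 1 with Nkx6.1-P2A-Olig2 at 2-fold. At a 1.5-fold gap they were 5, 3, 10, 7 and 10 in this order. At a 3-fold gap and with the 5 CPM filter there were 0 in the Nkx6.1 and Nkx6.1-P2A-Olig2 lines. Depth limits Fv1, with 2 and 4 counts in the Olig2 libraries, and Miip, with 32 and 40.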

Other observations

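Among the genes most like Rlf, 3 are neighbours on chromosome 14: Pcca, Ggact and Tmtc4, within 449712 bases (chr14:122534324-122984035, mm10). This stretch was noticed in these data. In the Nkx2.2 line all 3 were below all 13 other libraries. Pcca was 17.1 and 17.3 CPM there against 28.3 ± 2.40 in the controls (SD, n = 5), which is 60.7% of the control mean. Tmtc4, which encodes an enzyme that adds mannose to cadherins, was 18.7 and 18.8 CPM against 37.5 ± 2.23, or 50.1%. Ggact was 2.43 and 3.75 CPM against 5.88 ± 0.586, or 52.5%. The log2 fold changes were -0.72 ± 0.11, -0.998 ± 0.084 and -0.92 ± 0.20, with edgeR adjusted p of 0.00666, 7.31e-05 and 0.0566, so Ggact did not pass. Pcca and Ggact overlap on opposite strands, and the strand setting of the counts is not given, so their reads may be shared. The 3 tested genes directly before Pcca had similar values in the Nkx2.2 line: Zic2 -0.78 ± 0.23, 2610035F20Rik -0.84 ± 0.46 and Zic5 -1.10 ± 0.30. None of them was below all 13 other libraries. Zic2 and Zic5 were below the control mean in every line, with -1.285 and -1.22 in Nkx6.1-P2A-Nkx2.2 cells. These values do not show that the lowering begins at Pcca. Of the 7 tested flanking genes, 5 before and 2 after, edgeR called 0 in the Nkx2.2 line. Their median was -0.15, with a range from -1.10 (Zic5) to 0.52 (Fgf14). In Nkx6.1-P2A-Nkx2.2 cells these 3 genes had log2 fold changes of 0.09, -0.28 and 0.04 for Pcca, Tmtc4 and Ggact, and none passed (edgeR adjusted p = 0.755, 0.0960 and 0.962).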
